A study of Homo sapiens with 5 samples.

Results

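Forskolin (FSK) activates adenylate cyclase directly, without a hormone receptor, and so raises cyclic AMP (cAMP) in the cell. Its effect on RNA was read here by setting 1 library of FSK-treated KGN cells against 1 control library. KGN is an established human line from a granulosa cell tumour, the tumour of the follicle cells that make oestradiol under follicle-stimulating hormone (FSH). The cells grew for 72 h after plating. Both groups then spent 24 h in charcoal-stripped DMEM/F12 medium, to which androstenedione, the substrate of aromatase, had been added at 100 nmol/L. The control received the ethanol vehicle, under 0.05% by volume per the written protocol, although its sample title says that it had no treatment. For FSK the treatment label reads 10 mmol/L, while the written protocol has a symbol before "mol" that stands for micro, so the dose may have been 10 µmol/L. Each library was made from 270 ng of total RNA that pooled 90 ng from each of 3 cultures of 3 different weeks, with an RNA integrity number of 10. The 2 libraries are part of a set of 5, whose other 3 came from cells given FSH, SC79 (an activator of AKT) or PMA, a phorbol ester that switches on protein kinase C. Genes were compared where the library with the higher value held at least 100 scaled counts, which was true of 12606 of the 35453 gene names in the table.

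In granulosa cells cAMP is the messenger through which FSH and luteinizing hormone act. It binds the regulatory subunits of protein kinase A (PKA), whose freed catalytic subunits phosphorylate the transcription factor CREB and other proteins, and it also binds the exchange factors of the EPAC type. Phosphodiesterases break cAMP down and so end the signal, and many genes that cAMP switches on code for such brakes. In the follicle the pathway is known for inducing aromatase, cholesterol side-chain cleavage and inhibin, and it accompanies the change from dividing to steroid-making cells.

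Of the 12606 genes compared, 521 were at least 2-fold higher with FSK (4.13%) and 683 were at least 2-fold lower (5.42%). "Higher" and "lower" are used below in that sense, and values are scaled counts, meaning the authors' estimated counts per gene after scaling for library size. The libraries held 58849719 estimated counts for control and 52340080 for FSK. Ratios carry a 95% interval in brackets that covers counting error only. It leaves out the spread between cultures and the error of assigning reads to transcripts. Since the reads have no molecular identifiers, duplicate reads may also make the counting error larger than shown. With 1 library on each side no difference has a replicate check, and no p-value was computed. In RNA from whole cultures, fewer cells expressing a gene and less RNA per cell cannot be told apart. At least 4-fold differences were seen for 154 higher and 182 lower genes, while 52.5% of the genes lay within 1.2-fold. The higher genes together took 2.33% of all counts in control and 6.89% with FSK, and the lower genes took 4.81% and 1.76%. The median log2 ratio was 0.00925. On the authors' normalized signal taken without further scaling, the counts were 413 higher and 911 lower, and the median log2 ratio was -0.162. That signal is the estimated counts times 1.02 for control and 1.03 for FSK, so the difference in library totals stays in it.

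Of the 11 granulosa markers, 10 reached 100 scaled counts in 1 of the 2 libraries, and their summed level was 30214 in control and 64952 with FSK. CYP19A1 alone made up 900.5 of the control sum and 27409 of the FSK sum. FOXL2 and NR5A1 were close to control, and KITLG was lower at 0.301 of control (0.274 to 0.33). Of 5 immune markers 1 reached that level, CD68, and CD3E and MS4A1 were at 0 in all 5 libraries. The endothelial sum was 210.4 in control and 210.0 with FSK, although its members went opposite ways. PECAM1 had 108.6 in control and 171.4 with FSK, and VWF, below 100 in both, had 98.2 and 36.5. The 5 theca markers summed to 609 in control and 439 with FSK, with GLI1 lower at 0.448 of control (0.36 to 0.553). The 5 epithelial markers summed to 4053 and 3822, of which KRT7 made up 3899 and 3698. The 5 oocyte markers summed to 33.6 and 36.6. WT1, a granulosa marker, was below 100 in both libraries.

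**Figure D1:**
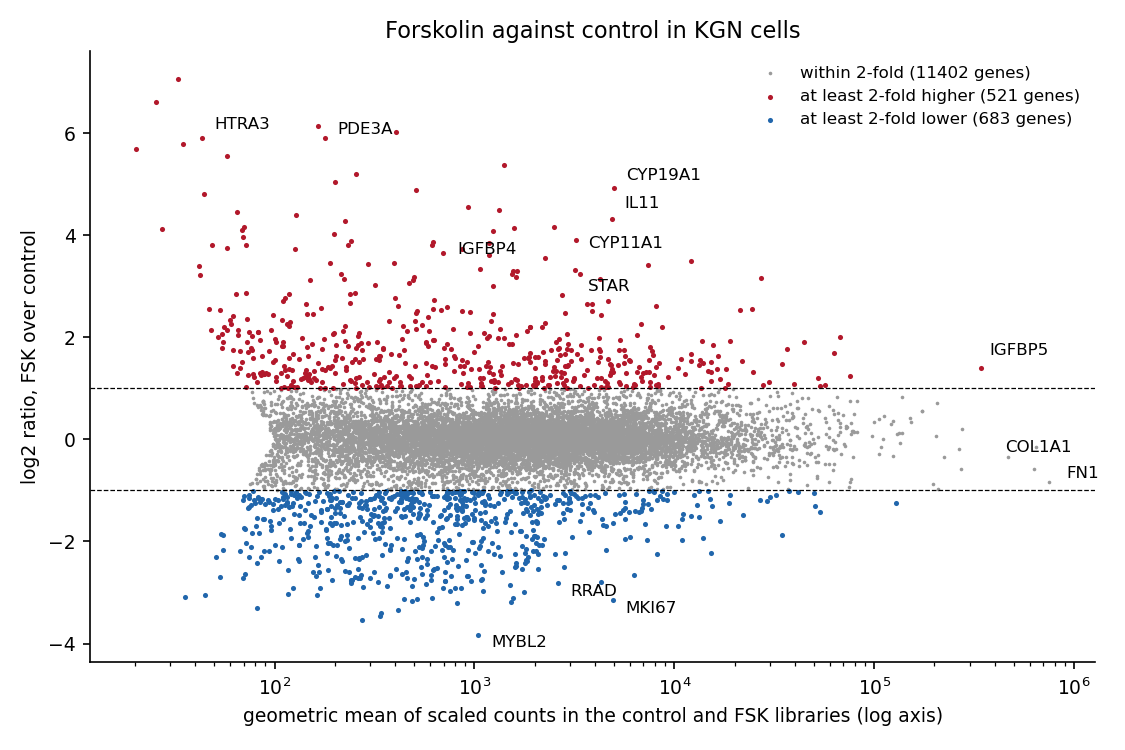
Each point is 1 of 12606 genes, with the geometric mean of its scaled counts in the control and FSK libraries on the log x axis and the log2 ratio of FSK over control on the y axis. Red points are the 521 genes at least 2-fold higher, blue points the 683 at least 2-fold lower and grey points the rest. CYP19A1 and IL11 combine a high level with ratios above 4 on the log2 scale.

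Members of the cAMP pathway itself were mostly near control, except for the enzymes that break cAMP down. Of 38 measured members of the machinery, 7 were higher and 3 lower, which is 18.4% and 7.89% beside 4.13% and 5.42% of all genes. Phosphodiesterases made up 5 of the higher ones, out of 10 measured, with a median log2 ratio of 1.89. PDE3A, a phosphodiesterase that hydrolyses cAMP and is inhibited by cGMP (chr12:20369245-20684381 in GRCh38), had 22.01 in control, 44.8 with FSH, 24.3 with SC79, 28.7 with PMA and 1374 with FSK. The FSK value was 62.4-fold (41.8 to 97.8) that of control, and the other 4 libraries lay between 22.01 and 44.8. PDE7B, a cAMP-specific enzyme, had 372 in control, 817 with FSH, 426 with SC79, 1148 with PMA and 6598 with FSK. Its ratio was 17.8-fold (16.1 to 19.7), and the PMA library was the next highest. PDE4D and PDE4B, cAMP-specific enzymes with a regulatory site that PKA phosphorylates, rose from 496 to 4883 and from 111 to 907. PDE1A, which calcium and calmodulin activate, was also higher, at 88.1 against 637 (log2 2.84).

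Its relative PDE1C was lower, at 2329 in control and 1119 with FSK (0.48 of control (0.447 to 0.516)). PDE3B and PDE10A did not reach the minimum, with 21.3 in control and 33.5 with FSK and with 4.58 in control and 0 with FSK. Upstream of cAMP, the inhibitory G protein subunit GNAI1 was higher, at 1526 against 5607 (log2 1.88). ADCY3, an adenylate cyclase, was lower at 0.339 of control (0.304 to 0.376), although under 80% of its sequence words are its own, so reads may have been split with another gene name. Downstream, none of the 6 PKA subunits passed 2-fold in either direction. The catalytic subunit genes PRKACA and PRKACB had 7052 against 6184 and 4820.2 against 4258, in control and with FSK in that order. RAPGEF4, the second EPAC exchange factor, was higher (log2 1.60), and AKAP12, which anchors PKA near the cell membrane, was lower at 0.482 of control (0.456 to 0.509).

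The factors that read the cAMP signal changed little at the RNA level. Among 18 measured CREB factors and coactivators, 1 was higher and 1 lower, 5.56% each and so near the 4.13% and 5.42% of all genes. CREB1 had 4152 in control and 4068 with FSK, and CREM, whose short products repress cAMP-driven genes, had 743 in control and 1182 with FSK (log2 0.67). The higher gene was SIK1, a kinase that keeps CREB coactivators out of the nucleus, with 529 in control and 2916 with FSK. No more than 9.62% of the sequence words of SIK1 occur in no other gene name, so its level is uncertain. SIK2, a kinase of the same family, lay just under the threshold at 1.99-fold (1.92 to 2.06). The lower gene was CREB3L1, a membrane-bound relative of CREB, at 0.466 of control (0.452 to 0.481). PPARGC1A, a coactivator known to respond to cAMP, stayed below the minimum with 23.8 against 96.8.

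Genes known to be induced by cAMP were the list with the largest share of higher members among the 28 lists described here. Of 36 measured members 21 were higher (58.3%) and 4 lower, with a median log2 ratio of 1.38. The list includes PDE3A, PDE4B, PDE4D and SIK1, described above. Among the orphan nuclear receptors of the NR4A family, NR4A2 had 311 in control, 512 with FSH, 345 with SC79, 722 with PMA and 4489 with FSK. NR4A3 rose from 61.4 to 876 and NR4A1 from 839 to 2119, so the 3 genes differed in size of response from 2.53-fold for NR4A1 to 14.4-fold for NR4A2. RGS2, which shortens G protein signals, had 535 in control, 816 with FSH, 514 with SC79, 3899 with PMA and 4824 with FSK. For RGS2 the PMA library came close to the FSK library, while NR4A2 with PMA stayed well below FSK.

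All 6 measured secreted members were higher. STC1, stanniocalcin, which inhibits the protease PAPPA, had 277 in control, 562 with FSH, 271 with SC79, 20098 with PMA and 6297 with FSK. The PMA value of STC1 exceeded the FSK value. AREG, amphiregulin, a ligand of the EGF receptor, had 68.8 against 413 in control and with FSK, and 415 with PMA. SCG2, secretogranin II of secretory granules, was higher at 6.55-fold (6.25 to 6.88), and INHBA, BDNF and IL6 were higher as well (log2 1.96, 1.95 and 1.52).

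Among the brakes and transcription factors of the list, KLF9 had a log2 ratio of 3.30, DUSP1, a phosphatase of MAP kinases, 1.56, SGK1, a kinase related to AKT, 1.53 and PER1 of the circadian clock 1.19. CEBPB and CEBPD, bZIP factors, had 1.41 and 1.32. Early-response genes did not share one direction after 24 h. FOS had 674 in control and 1077 with FSK (log2 0.68) and JUNB 3273 in control and 4175 with FSK (log2 0.35), whereas FOSB was lower at 0.391 of control (0.325 to 0.468). RRAD and GEM, small GTPases that inhibit calcium channels, were lower at 0.142 of control (0.132 to 0.152) and 0.436 of control (0.395 to 0.48). HES1, a repressor downstream of Notch, was lower with 1042 in control and 199.5 with FSK.

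**Figure D2:**
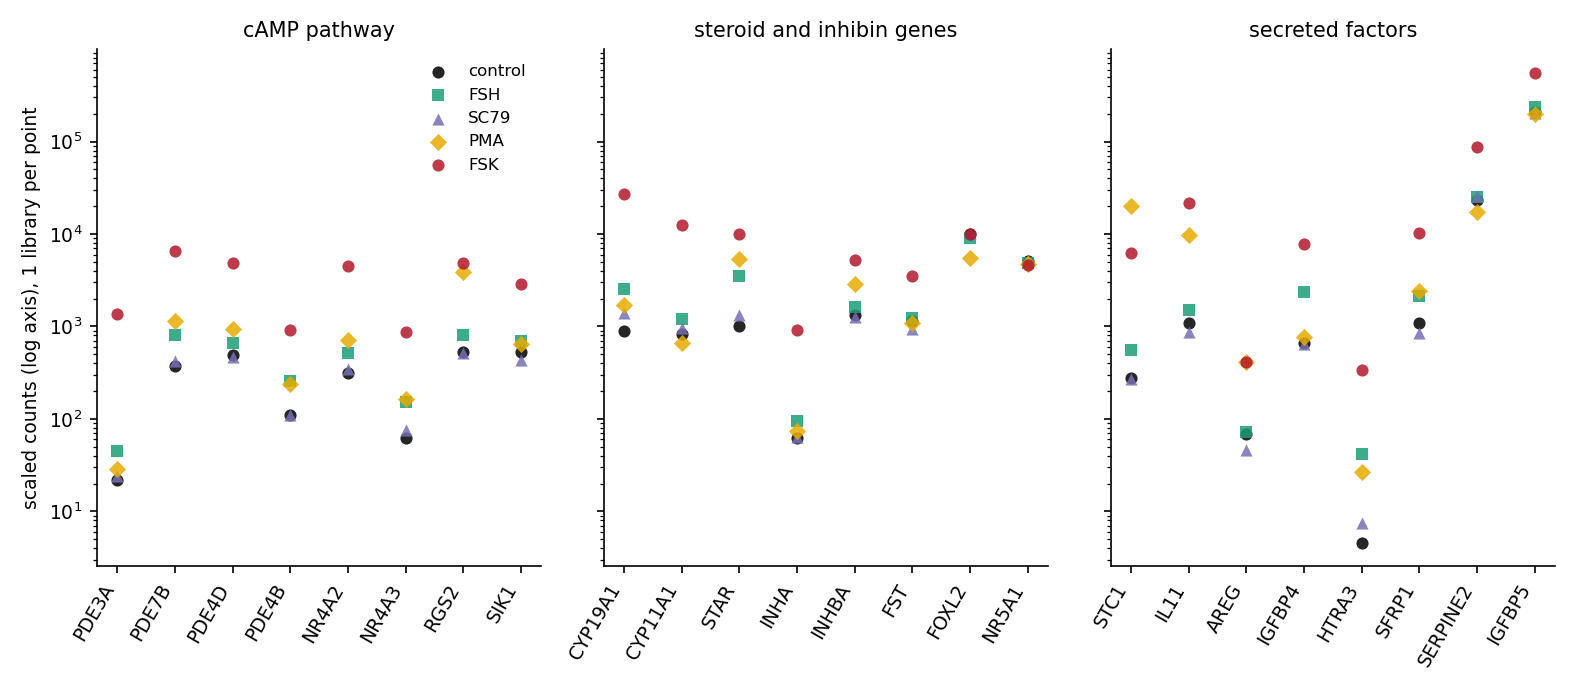
Scaled counts on a log axis of 8 cAMP pathway genes, 8 steroid and inhibin genes and 8 secreted factors, with 1 point for each of the 5 libraries. For PDE3A, CYP19A1 and INHA the FSK library stands above the other 4, for STC1 the PMA library is highest, and FOXL2 and NR5A1 have like values in control and FSK.

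The full cAMP response element, the 8-base word that CREB binds, was looked for in the promoters of the higher genes. Promoters are 300-base RefSeq stretches on GRCh38.p14, from 250 bases before to 50 after a transcription start. For each gene the start nearest the 5′ end of its most abundant GENCODE transcript was taken, and 10090 of the genes compared had one. TGACGTCA, which reads the same on both strands, was in 3.40% of these, in 3.21% of 405 promoters of higher genes and in 3.54% of 536 promoters of lower genes. Over all 35116 promoters in the RefSeq table the share was 1.85%. So the word was about as frequent in higher genes as among all genes compared. Of the 29 promoters of cAMP-inducible genes, 3 held it (10.3%). The 5-base core TGACG, which is part of the full word, was in 17 of them (58.6%). The core was found in 34.9% of all promoters compared, and less often in higher genes (28.9%) and lower genes (27.6%). Promoters of mitosis genes, which were mostly lower, held the full word in 10.1% and the core in 48.1%. Neither word was thus particular to genes that were higher, although both were more frequent in the cAMP-inducible list than among all genes compared. Below are the stretches around the word in the 4 higher genes with the largest ratios that held it before the start, with the word in capitals.
PDE7B: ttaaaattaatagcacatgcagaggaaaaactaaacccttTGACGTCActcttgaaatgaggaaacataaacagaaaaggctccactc
AVPI1: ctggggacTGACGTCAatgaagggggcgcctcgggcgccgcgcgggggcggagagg
AREG: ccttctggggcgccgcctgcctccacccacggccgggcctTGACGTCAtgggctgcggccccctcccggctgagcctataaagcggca
AHI1: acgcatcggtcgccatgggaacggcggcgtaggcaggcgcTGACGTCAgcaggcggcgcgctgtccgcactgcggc
These lie at chr6:135851506-135851593 (plus strand), chr10:97687436-97687491 (minus), chr4:74445031-74445118 (plus) and chr6:135497741-135497816 (minus). The word begins 155 bases before the start in PDE7B, 242 in AVPI1, 65 in AREG and 36 in AHI1. AVPI1, named as a gene induced by vasopressin, had 501 against 4725, and AHI1, a protein of the primary cilium, had 1203 against 6659.6. The presence of the letters is a description and does not show that CREB was bound.

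Steroid synthesis showed a few large differences among many small ones. Of 25 measured genes 5 were higher (20%) and 0 lower, with a median log2 ratio of 0.21. CYP19A1, the aromatase that turns androstenedione into oestrone (chr15:51208057-51338610, minus strand), had 900.5 in control, 2564 with FSH, 1382 with SC79, 1688 with PMA and 27409 with FSK. FSK gave 30.4-fold (28.6 to 32.5) the control value, and FSH gave the next highest level. CYP11A1, which cleaves the side chain of cholesterol to give pregnenolone, had 825 in control, 1191 with FSH, 969 with SC79, 670.2 with PMA and 12434 with FSK. STAR, which carries cholesterol to the inner mitochondrial membrane, had 1011 in control, 3531 with FSH, 1333 with SC79, 5377 with PMA and 10078 with FSK. For CYP11A1 the PMA library lay below control, while for STAR it was the second highest of the 5.

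The electron carriers of side-chain cleavage were within 2-fold of control. FDX1 had 1654 in control and 2143 with FSK (log2 0.37), and its reductase FDXR had 964 in control and 772 with FSK (log2 -0.32). HSD3B2, which makes progesterone, stayed below the minimum with 12.8 against 73.1. HSD17B1, which reduces oestrone to oestradiol, had 690.4 in control and 692 with FSK. AKR1C1 and AKR1C2 just passed the threshold (log2 1.03 and 1.01), and AKR1C3 fell short of it at 0.87. Both AKR1C1 and AKR1C2 share over 20% of their sequence words with other gene names, and the protein-coding transcripts of AKR1C1 alone had a log2 ratio of 0.94. In the deposited table of the authors, the aromatase transcript ENST00000396402.5 had a log2 fold change of 4.88 and the STAR transcript ENST00000276449.8 one of 3.37.

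The supply of cholesterol was close to control, with 4 of 45 genes higher (8.89%) and 0 lower. SCARB1, the receptor for high-density lipoprotein, stayed within 2-fold with a log2 ratio of 0.52. The 4 higher genes act in transport, uptake or control. GRAMD1B, which moves cholesterol from the cell membrane to the endoplasmic reticulum, had 251 in control and 1188 with FSK (4.72-fold (4.14 to 5.41)). ABCG1, a sterol exporter, had 115 against 435, the fatty acid receptor CD36 had 44.2 against 135, and NR1H3, the oxysterol receptor LXR-alpha, had 252 against 551. Protein-coding transcripts alone left CD36 below the minimum, with 18.3 and 90.2.

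Transcription factors that define granulosa cells differed little. FOXL2 had 9964 in control and 9990.2 with FSK, GATA4 10074 in control and 15438 with FSK and GATA6 9074 in control and 9262 with FSK, and NR5A1, the steroidogenic factor SF-1, had 5069 in control and 4678 with FSK. Of 21 measured factors 3 were higher (14.3%) and 1 was lower (4.76%), beside 4.13% and 5.42% of all genes. The higher ones included NR4A1, given above, and the homeobox gene LHX9, at 2.03-fold (1.85 to 2.23). The lower one was SOX9, the factor of testicular Sertoli cells, at 0.457 of control (0.429 to 0.485). NR5A2, the SF-1 relative of the follicle, had 615 in control and 346 with FSK (log2 -0.83). NR0B1, which represses SF-1, was near 0 in both libraries with 1.83 against 2.09.

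Hormone receptors numbered 22 measured, of which 6 were higher (27.3%) and 0 lower, beside 4.13% and 5.42% of all genes. FSHR, the FSH receptor, had 92.6 in control, 111 with FSH, 73.0 with SC79, 36.6 with PMA and 132 with FSK, so its FSK and control values differed by less than 2-fold. S1PR3, a receptor for sphingosine 1-phosphate, was higher at 4.79-fold (4.62 to 4.98), while S1PR1 of the same family had a log2 ratio of -0.39. AMHR2, the anti-Müllerian hormone receptor, was higher (log2 1.15), as were PGRMC2, a membrane progesterone-binding protein (1.31), and VIPR1, a receptor that itself signals through cAMP (1.24). PTGER2, a prostaglandin E receptor that also raises cAMP, had 550.2 in control and 328 with FSK (log2 -0.74).

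The 3 inhibin and activin subunit genes had different ratios. INHA, the alpha subunit of inhibin, had 61.4 in control, 93.8 with FSH, 63.5 with SC79, 74.1 with PMA and 920.4 with FSK. It was 14.98-fold (11.7 to 19.5) higher with FSK, and the other 4 libraries lay between 61.4 and 93.8. INHBA, the beta A subunit, had 1341 in control and 5217 with FSK (3.89-fold (3.67 to 4.13)), whereas INHBB, the beta B subunit, had 93.5 in control and 13.6 with FSK and did not reach the minimum. FST, follistatin, which binds activin, was higher with 1145 against 3509. The activin relative BMP3 was higher at 7.34-fold (5.41 to 10.2) and the BMP inhibitor GREM1 at 2.82-fold (2.46 to 3.25).

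Across this system 9 of 47 genes were higher (19.1%) and 1 was lower (2.13%), beside 4.13% and 5.42% of all genes. The lower one was the ligand TGFB2, at 0.493 of control (0.442 to 0.548). Both TGF-beta receptor genes were higher, TGFBR1 at 3.31-fold (3.21 to 3.43) and TGFBR2 at 2.47-fold (2.39 to 2.56). SMAD3, which carries the signal to the nucleus, had 32483 in control and 16722 with FSK (log2 -0.96). ID2, an inhibitor of basic helix-loop-helix factors, was higher at 4.6-fold (4.29 to 4.95), while ID1 and ID3 had log2 ratios of 0.72 and 0.29.

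In the prostaglandin system 3 genes that act one after the other were higher. PLA2G4A, the phospholipase that frees arachidonic acid, had 631 against 1356, PTGS2, the inducible cyclooxygenase, 539 against 2285, and PTGES, a prostaglandin E synthase, 7.49 against 396. The ratio of PTGES was 52.9-fold (27.1 to 126), from a control level near 0, and its protein-coding transcripts alone had 0 in control and 369 with FSK. ABCC4, an exporter of prostaglandins and of cAMP, had 6422 in control and 16952 with FSK. Lower genes were CBR3, a carbonyl reductase (0.465 of control (0.414 to 0.522)), TBXAS1, thromboxane synthase (0.294 of control (0.199 to 0.428)), and the receptor PTGER4 (0.303 of control (0.21 to 0.428)). In all, 4 of 16 measured genes were higher (25%) and 3 lower (18.8%), beside 4.13% and 5.42% of all genes. Protein-coding transcripts alone left TBXAS1 below the minimum, with 58.1 in control and 13.1 with FSK. PTGS1, the constitutive cyclooxygenase, had 4.58 against 58.5 and did not reach the minimum.

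Genes of the ovulatory matrix split by role. Of 9 measured genes of the hyaluronan matrix 0 were higher and 2 lower (22.2%), beside 4.13% and 5.42% of all genes. HAS2, the hyaluronan synthase of cumulus expansion, had 382 in control, 325 with FSH, 314 with SC79, 291 with PMA and 61.7 with FSK, and FSK was the lowest of the 5. PTX3, which links the hyaluronan matrix, had 689 in control and 207 with FSK. CEMIP, which helps degrade hyaluronan, had 103176 against 54218 (log2 -0.93). The proteoglycan VCAN had 130372 against 175049 (log2 0.43), and the proteases that can cleave it differed in their calls. ADAMTS15 and ADAMTS5 were higher at 3.39-fold (3.2 to 3.59) and 2.61-fold (2.37 to 2.86), and ADAMTS1 had a log2 ratio of 0.85. Among EGF-like ligands NRG1 was higher at 2.71-fold (2.41 to 3.05), and EREG was below the minimum with 13.9 against 19.3.

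In the plasminogen system both activators were lower and the inhibitor SERPINE2 was higher. PLAT, the tissue-type activator, had 479.6 in control and 94.03 with FSK, and PLAU, the urokinase, had 12743 in control and 4027 with FSK. PLAU shares over 20% of its sequence words with another gene name. SERPINE2, protease nexin-1, had 23047 in control, 24926 with FSH, 25624 with SC79, 17302 with PMA and 86875 with FSK, and FSK was the highest of the 5. MMP16, a membrane-bound metalloproteinase, was higher at 2.68-fold (2.59 to 2.76), and TIMP1, an inhibitor of metalloproteinases, had 28211 against 52758 (log2 0.90).

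The insulin-like growth factor (IGF) system had the largest median of the 28 lists described here. Of 18 measured genes 10 were higher (55.6%) and 0 lower, with a median log2 ratio of 1.39. IGFBP5, an IGF-binding protein (chr2:216672105-216695525, minus strand), had 210329 in control, 236735 with FSH, 201280.4 with SC79, 198382 with PMA and 555181 with FSK. Its rise of 344852 scaled counts was the largest of any gene, and its share of all counts went from 0.390% to 1.02%. IGFBP4 had 657 in control, 2357 with FSH, 643 with SC79, 765 with PMA and 7729.5 with FSK. IGFBP1 and IGFBP3 were higher at 4.24-fold (3.84 to 4.69) and 3.5-fold (3.39 to 3.63), whereas IGFBP2 and IGFBP6 had log2 ratios of -0.19 and -0.32. PAPPA, the protease that cleaves IGFBP4, had 9342 in control and 29023 with FSK, and its inhibitor STC1 was higher too, as given above. HTRA3, a secreted serine protease, had 4.58 in control, 41.9 with FSH, 7.41 with SC79, 26.7 with PMA and 334 with FSK. With so few counts in control, the counting interval of the HTRA3 ratio runs from 30.9 to 226-fold. The receptor IGF1R was higher at 2.61-fold (2.55 to 2.67), as were IGF1 (3.99-fold (3.09 to 5.27)) and IRS1, the docking protein of the receptor (3.16-fold (2.99 to 3.34)). IRS2 was at 3709 in control and 2673 with FSK (log2 -0.47).

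**Figure D3:**
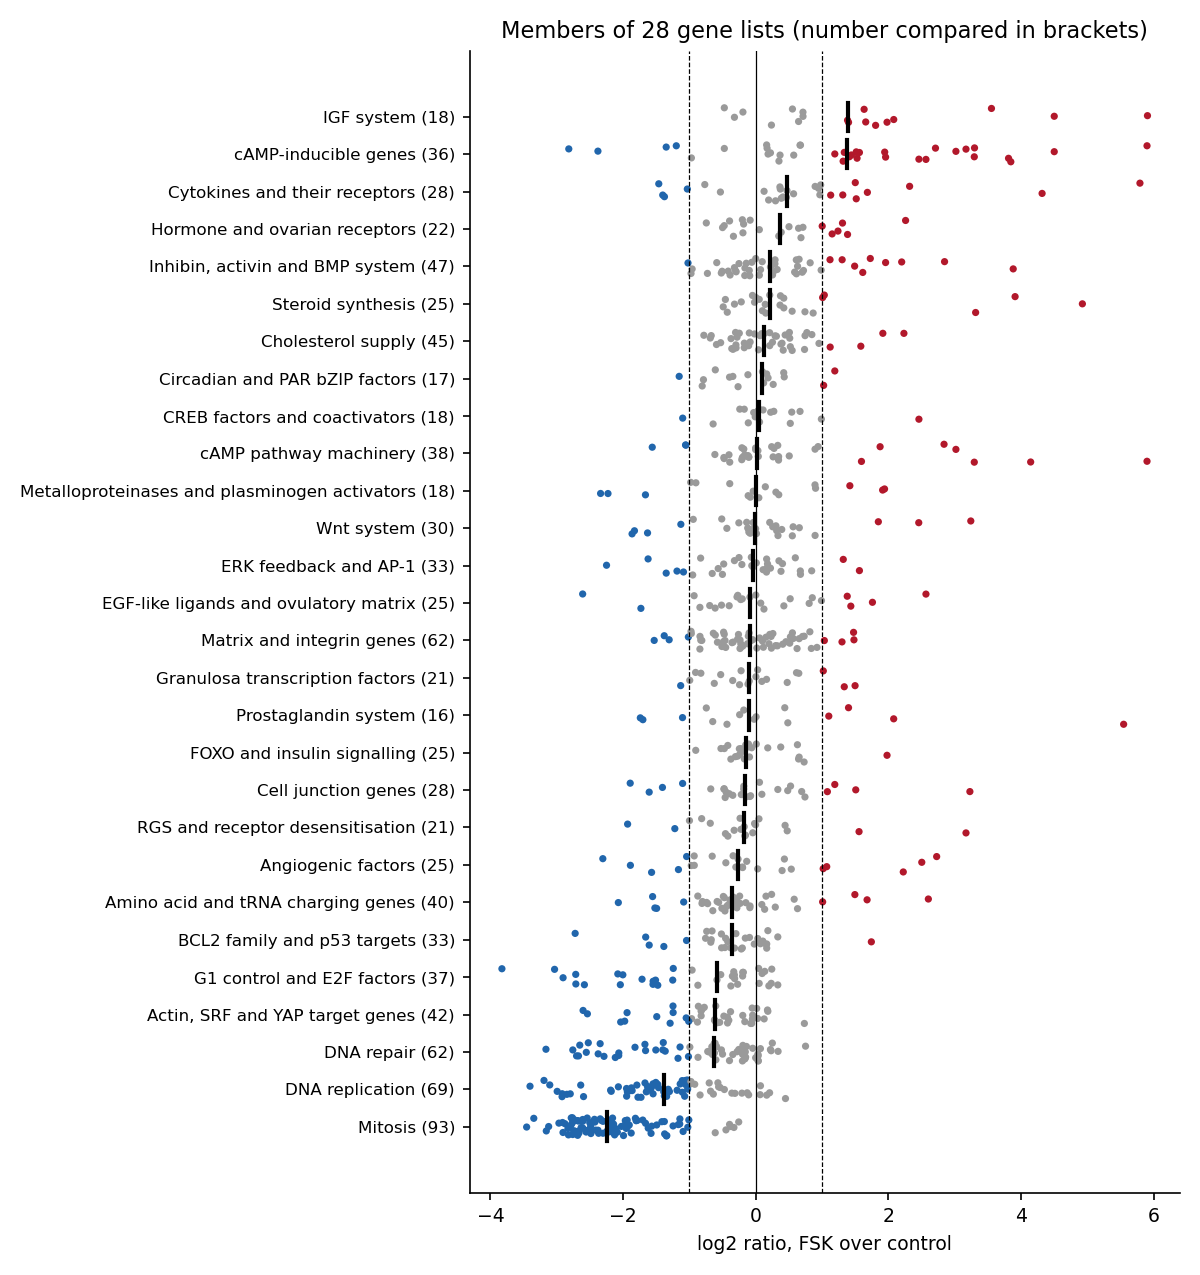
Log2 ratios of FSK over control for the members of 28 gene lists, ordered by their median, which is drawn as a black bar. Red points are at least 2-fold higher, blue points at least 2-fold lower and grey points between, the dashed lines mark 2-fold, and the IGF system and cAMP-inducible genes stand at the top with medians of 1.39 and 1.38 while mitosis stands at the bottom with -2.23.

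Angiogenic ligands went both ways, 5 higher (31.2%) and 4 lower (25%) of 16, beside 4.13% and 5.42% of all genes. FGF7, a growth factor for epithelial cells, was higher at 6.65-fold (5.84 to 7.61), PDGFD at 5.68-fold (5.4 to 5.98) and ANGPT1, the ligand of the TEK receptor, at 4.7-fold (4.05 to 5.47). FGF1 was lower at 0.2 of control (0.152 to 0.26), and PDGFA and PDGFB at 0.446 of control (0.416 to 0.478) and 0.333 of control (0.246 to 0.447). VEGFA, the main vascular growth factor, had 8734 in control and 12673 with FSK (log2 0.54). MET, the receptor of hepatocyte growth factor, was the lower receptor, with 3486 in control and 941 with FSK.

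In the Wnt system 3 of 30 measured genes were higher (10%) and 4 lower (13.3%), beside 4.13% and 5.42% of all genes. SFRP1, which binds Wnt proteins outside the cell, had 1090.3 in control, 2153 with FSH, 859 with SC79, 2425 with PMA and 10337 with FSK. NKD2, an inhibitor of the pathway inside the cell, had 65.1 against 363, and WNT5A had 1801 against 6494. Its near relative WNT5B went the other way with 2791 against 1277. The antagonist DKK1 had a log2 ratio of 0.57, and TCF7, a factor that reads the Wnt signal, was lower at 0.321 of control (0.256 to 0.403).

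Among cytokines and their receptors 8 of 28 were higher (28.6%) and 4 lower (14.3%), beside 4.13% and 5.42% of all genes. IL11, a cytokine of the IL-6 family, had 1095 in control, 1496 with FSH, 869.9 with SC79, 9703 with PMA and 21866 with FSK. The FSK and PMA libraries were both far above the other 3. IL18R1, a subunit of the interleukin-18 receptor, rose from 3.67 to 258, and the counting interval of its ratio runs from 27.1 to 260.2-fold. TNFSF10, the death ligand TRAIL, was higher at 5.01-fold (4.58 to 5.49), and TNFRSF11B, osteoprotegerin, which binds it, at 3.22-fold (3.01 to 3.44). The chemokines CXCL1 and CXCL6 were lower (0.489 of control (0.455 to 0.526) and 0.378 of control (0.324 to 0.438)), while CXCL8 had 2212 against 4364 (log2 0.98). LIF, another member of the IL-6 family, had 809 against 1202 (log2 0.57).

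Signal-limiting genes of G protein receptors and of MAP kinases were called in small numbers. Besides RGS2, RGS4 had 10425 in control and 5219 with FSK (log2 -0.998), just inside 2-fold (-1.01 and so past it in its protein-coding transcripts alone), and RGS7 was lower at 0.259 of control (0.191 to 0.346). ARRDC3, an arrestin-like protein, was higher at 2.95-fold (2.85 to 3.05). SPRY1, a Sprouty inhibitor of receptor kinase signals, was higher at 2.5-fold (2.3 to 2.72). Of 18 measured AP-1 and ETS factors 0 were higher and 4 lower (22.2%), beside 4.13% and 5.42% of all genes. FOSL1, an AP-1 subunit, had 17812 in control, 16874 with FSH, 16254 with SC79, 8467 with PMA and 3747 with FSK, lowest with FSK. JUN had 12408 in control and 5452 with FSK and ETS1 4665 in control and 1515 with FSK. Of 17 clock genes 2 were higher, PER1 and DBP (2.04-fold (1.73 to 2.41)), and 1 was lower, BHLHE41 (0.449 of control (0.407 to 0.495)). The clock shares were 11.8% and 5.88%, beside 4.13% and 5.42% of all genes.

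The contractile and actin genes were shifted downward together. Of 42 measured targets of actin, SRF and YAP signalling 0 were higher and 11 lower (26.2%), and 36 had a ratio below 1. All 16 contractile genes lay below control, with 8 of them lower. ACTG2, smooth muscle gamma actin, had 3378 in control, 2763 with FSH, 2275 with SC79, 1527 with PMA and 555 with FSK. ACTA2, smooth muscle alpha actin, had 21756 in control, 19158 with FSH, 17280.0 with SC79, 4438 with PMA and 5534 with FSK. FSK was the lowest of the 5 libraries for ACTG2, and for ACTA2 the PMA library was lower still. TAGLN, transgelin, had 36929 against 13135, LMOD1, leiomodin, 384 against 92.98 and CNN1, calponin, 177 against 74.05. MYH9, the heavy chain of nonmuscle myosin, had 198044 against 83589, and FLNA, which crosslinks actin, 266894 against 145278 (log2 -0.88).

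YAP targets were less uniform. ANKRD1 was lower at 0.171 of control (0.144 to 0.202), CYR61 had a log2 ratio of -0.86, and CTGF, the connective tissue growth factor, had 64913 in control and 62579.7 with FSK (log2 -0.05). WWTR1, the YAP partner TAZ, had the largest upward value of the list at 0.73.

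Most matrix genes stayed within 2-fold, 4 of 62 being higher and 4 lower. At 6.45% each, these shares were near the 4.13% and 5.42% of all genes. The higher ones were the basement membrane collagens COL4A5 and COL4A6 (2.47-fold (2.37 to 2.56) and 2.79-fold (2.63 to 2.97)), the integrin ITGA1, which binds collagen (2.78-fold (2.74 to 2.83)), and nidogen NID2 (2.05-fold (1.95 to 2.15)), whose sequence is in part shared. COL4A1 had 66288 against 79364 (log2 0.26). TNC, tenascin C, was lower at 0.346 of control (0.337 to 0.355) and ITGB3, an integrin chain, at 0.385 of control (0.37 to 0.4). ITGB3 shares over 20% of its sequence words with other gene names. FN1, fibronectin, had 1004350.0 in control, 945598 with FSH, 1146027 with SC79, 1046771 with PMA and 560765 with FSK, a log2 ratio of -0.84 and the largest fall in scaled counts of any gene. COL1A1 had 767308 in control, 708339 with FSH, 767221 with SC79, 276510.0 with PMA and 514649 with FSK (log2 -0.58), and its lowest value was with PMA.

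Cell contact genes went both ways, with 4 of 28 higher and 4 lower, 14.3% each beside 4.13% and 5.42% of all genes. GJA1, connexin 43, the main gap junction protein of granulosa cells, had 34621 in control, 39569 with FSH, 30775 with SC79, 47604 with PMA and 79158 with FSK. GJC1, connexin 45, was lower with 3207 in control and 1209.9 with FSK. CDH11 and CDH6, cadherins, were higher (2.12-fold (2.09 to 2.15) and 2.86-fold (2.4 to 3.45)), and CDH2, N-cadherin, had 17853 against 13537 (log2 -0.40). CTNNA2, the neural alpha catenin, had 69.4 against 659. CLDN11, a tight junction claudin, had 29566 against 9716 and was lower, as was the keratin KRT19 at 0.269 of control (0.251 to 0.289). E-cadherin, CDH1, was below the minimum with 11.05 against 11.97.

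Cell division genes made up the largest block of lower genes. Of 37 measured genes of G1 control 16 were lower (43.2%) and 0 higher, beside 5.42% and 4.13% of all genes. CCND1, cyclin D1, had 28928 in control, 26655 with FSH, 26414 with SC79, 51109 with PMA and 12227 with FSK, the lowest value being with FSK. CCNE1 and CCNE2, the E cyclins, had 525 against 184 and 667 against 101, and CCNE2 shares part of its sequence with another name. E2F1 had 1906 in control, 1731 with FSH, 1426 with SC79, 1535 with PMA and 254 with FSK, E2F8 had 332 against 39.7 and MYBL2, a factor of the MuvB complex, had 3939 against 277 (0.0703 of control (0.0618 to 0.0796)). FOXM1, which drives mitotic genes, had 4299 against 1017, and MYC had 5970.3 against 3984 (log2 -0.58).

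The CDK inhibitors did not go up by 2-fold. CDKN1A, p21, had 25479 in control, 26393 with FSH, 31802 with SC79, 32142 with PMA and 32110.0 with FSK, CDKN1B, p27, had 4392 in control and 5197 with FSK, and CDKN2C, p18, was lower with 1971 in control and 491 with FSK. CDKN1C and CCND2 were below the minimum with 40.3 against 37.6 and 24.8 against 14.6. The pocket protein RBL1, itself an E2F target, was lower at 0.359 of control (0.319 to 0.402), while RBL2, which binds repressor E2F in resting cells, had 4639 against 5458 (log2 0.23). E2F4, a repressor E2F, had 2340.2 against 1873 (log2 -0.32).

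Of 69 DNA replication genes 47 were lower (68.1%) and 0 higher, with a median log2 ratio of -1.38. By role, 12 of 16 origin licensing genes, 10 of 11 helicase activation genes, 13 of 24 polymerase and clamp genes, 6 of 10 nucleotide supply genes and 6 of 8 chromatin assembly genes were lower. MCM10, which starts the helicase, had 1104 in control, 1008 with FSH, 771 with SC79, 801 with PMA and 104 with FSK. TYMS, thymidylate synthase, had 4986 in control, 4181 with FSH, 4188 with SC79, 2484 with PMA and 626 with FSK, and RRM2, a subunit of ribonucleotide reductase, had 4587 against 532. CDT1 and ORC1, which license origins, had 1369.6 against 219 and 582 against 95.4, and GMNN, geminin, which restrains CDT1, had 1049.9 against 499. The 5 genes of the list with ratios above 1, all within 2-fold, were POLD4 and POLE4, small polymerase subunits (log2 0.07 and 0.07), RRM2B, the p53-regulated reductase subunit (log2 0.17), ORC4 (0.21) and the histone chaperone ASF1A (0.45). POLD4 shares part of its sequence with other gene names.

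In promoters, an E2F word (TTTGGCGC, TTTCGCGC, TTTCCCGC or TTTGCCGC, on either strand) stood in 24 of 58 replication promoters (41.4%). It stood in 5.39% of all genes compared, 2.47% of higher genes, 11.4% of lower genes and 3.31% of all promoters in the table. With the same chromosome left out, the 3 replication genes with the largest falls that held a word before the start are shown. The word is in capitals, here as its reverse complement.
UHRF1: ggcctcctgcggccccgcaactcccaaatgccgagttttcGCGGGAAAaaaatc
TYMS: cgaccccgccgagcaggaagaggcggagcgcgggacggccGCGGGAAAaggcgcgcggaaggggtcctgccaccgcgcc
GINS2: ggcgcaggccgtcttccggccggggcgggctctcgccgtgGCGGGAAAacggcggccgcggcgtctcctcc
They lie at chr19:4909447-4909500 (plus strand), chr18:657574-657652 (plus) and chr16:85688955-85689025 (minus), and the words begin 14, 39 and 31 bases before the start. UHRF1, which keeps DNA methylation through replication, had 4597 against 502 and shares part of its sequence with another gene name. GINS2, a subunit of the replicative helicase, had 871 against 125.

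DNA repair split by pathway. Homologous recombination had 12 of 19 genes lower with a median of -1.51, and the Fanconi pathway 6 of 12 with -1.13. Mismatch and excision repair had 3 of 15 lower with -0.15, and end joining and checkpoint genes 2 of 16 with -0.45. BRCA1, which acts in homologous recombination, had 1736 in control, 1525 with FSH, 1443 with SC79, 1466 with PMA and 341 with FSK, and FSK was the lowest of the 5. EXO1 and RAD54L had 957 against 149 and 642 against 97.9, and CLSPN, claspin of the replication checkpoint, had 1457 against 162. LIG4, the ligase of end joining, had 909.6 against 1533 (log2 0.75), and ERCC3 of excision repair had 2534 against 3016 (log2 0.25).

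Mitosis was the most uniform list. All 93 genes were measured, 87 were lower (93.5%), 0 were higher and all had a ratio below 1. Kinetochore genes (22 of 22 lower), condensin and cytokinesis genes (22 of 22) and mitotic kinases and cyclins (17 of 17) had medians of -2.43, -2.36 and -2.18. Anaphase and exit genes had 7 of 11 lower. MKI67, the Ki-67 protein of dividing cells (chr10:128096659-128126385, minus strand), had 14739 in control, 12534 with FSH, 13015 with SC79, 6243 with PMA and 1652 with FSK, so that FSK was 0.112 of control (0.106 to 0.118). The PMA library was the second lowest for this gene. AURKB had 1315 in control, 1212 with FSH, 1357 with SC79, 565 with PMA and 128 with FSK, AURKA 1724 against 577 and CCNB1, cyclin B1, 4360.1 against 1126. PKMYT1, which holds back the cyclin B kinase, had 1118 against 101 and shares part of its sequence. The genes inside 2-fold included FZR1, which acts in G1 as well as at mitotic exit (3791 against 3020.1), CDC14B (1591 against 1333), KIF18A (1291 against 993) and CKAP5 (22654 against 17245).

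**Figure D4:**
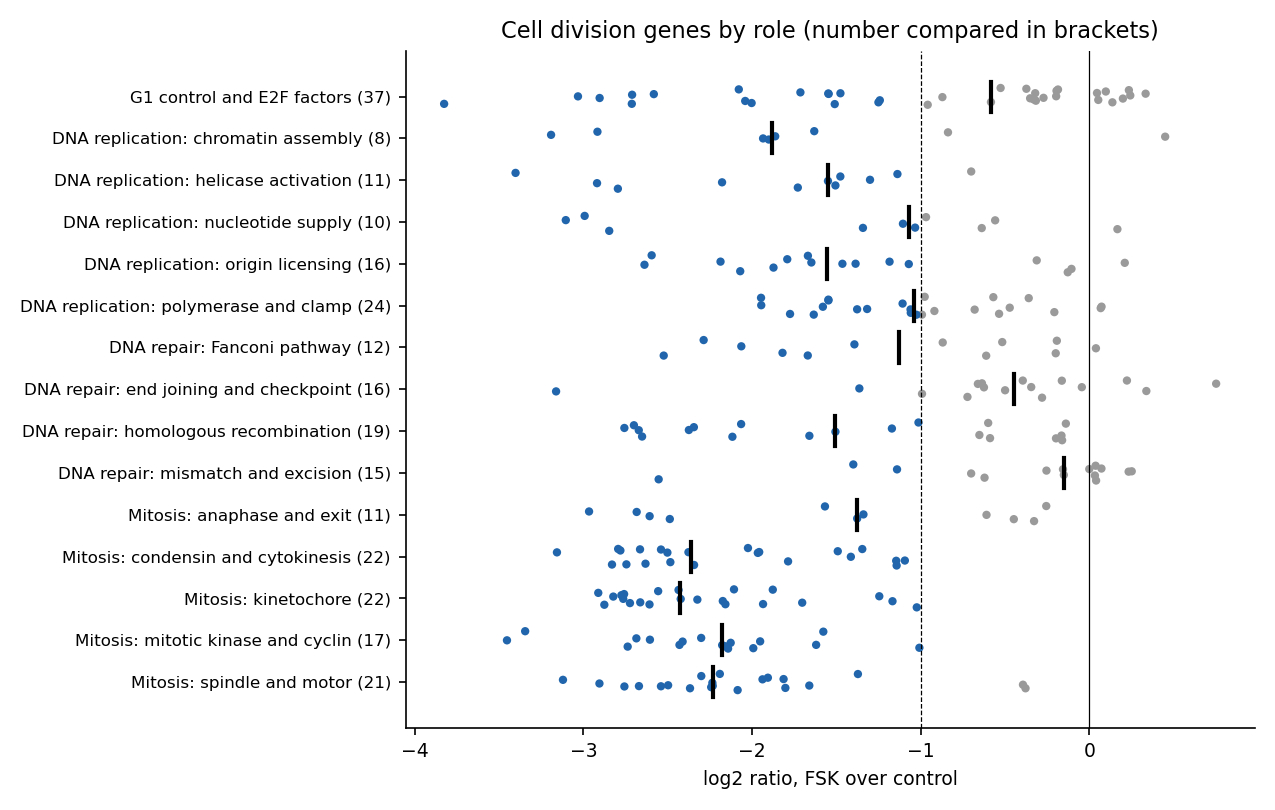
Log2 ratios of FSK over control for genes of G1 control, DNA replication, DNA repair and mitosis, by role, with black bars for medians, blue points for genes at least 2-fold lower and the dashed line at 2-fold lower. Kinetochore genes center on -2.43, while mismatch and excision repair genes center on -0.15.

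The cell cycle homology region (CHR), a 6-base word bound by the MuvB complexes of mitotic genes, was searched as TTTGAA or TTCGAA on either strand. It was in 59 of 79 mitosis promoters (74.7%) and in 10.9% of all genes compared, 10.6% of higher genes, 25.7% of lower genes and 43.7% of genes at least 4-fold lower. Over all promoters in the table the share was 16.4%. CCAAT, the word of NF-Y, on either strand, was in 70.9% of mitosis promoters, 36.9% of all genes compared and 34.6% of the table. Lower genes outside the 4 cell division lists held the CHR word in 18.8% of 394 promoters and an E2F word in 6.85%. With that chromosome again left out, the 4 mitosis genes with the largest falls and the CHR word before the start are shown. In each, 1 copy of the word, or of its reverse complement, is in capitals. The MKI67 stretch holds a further copy upstream, left in lower case.
MKI67: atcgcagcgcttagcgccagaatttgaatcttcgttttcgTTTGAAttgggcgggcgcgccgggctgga
KIF15: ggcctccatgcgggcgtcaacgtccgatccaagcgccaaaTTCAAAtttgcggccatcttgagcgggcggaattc
CDCA8: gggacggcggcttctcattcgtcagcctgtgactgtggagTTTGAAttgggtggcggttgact
SPC25: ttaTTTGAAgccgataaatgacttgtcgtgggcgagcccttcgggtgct
They lie at chr10:128126424-128126492 (minus strand), chr3:44761719-44761793 (plus), chr1:37692453-37692515 (plus) and chr2:168890632-168890680 (minus), with the word 29, 35, 23 and 247 bases before the start. KIF15, a spindle motor, had 1308 against 149, CDCA8, borealin of the chromosomal passenger complex, 1529 against 214 and SPC25 of the kinetochore 641 against 89.8.

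Other words differed between the classes as well. TGAGTCA, the AP-1 word, on either strand, was in 6.17% of higher and 9.82% of at least 4-fold higher genes, beside 2.90% of all genes compared and 4.95% of the table. TATAAA, bound by TBP, was in 12.1% of higher genes and in 9 of 29 promoters of cAMP-inducible genes, beside 4.93% of all genes compared and 11.5% of the table. AAGGTCA, the word of NR5A factors, was in 0.988% of higher genes and 2.24% of all, and GGGCGG, the GC box, in 60% of higher and 74.3% of lower genes beside 73% of all and 45% of the table. The NR5A word was in 3.92% of the table. These are shares of letters in 300-base stretches, and binding was not measured.

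**Figure D5:**
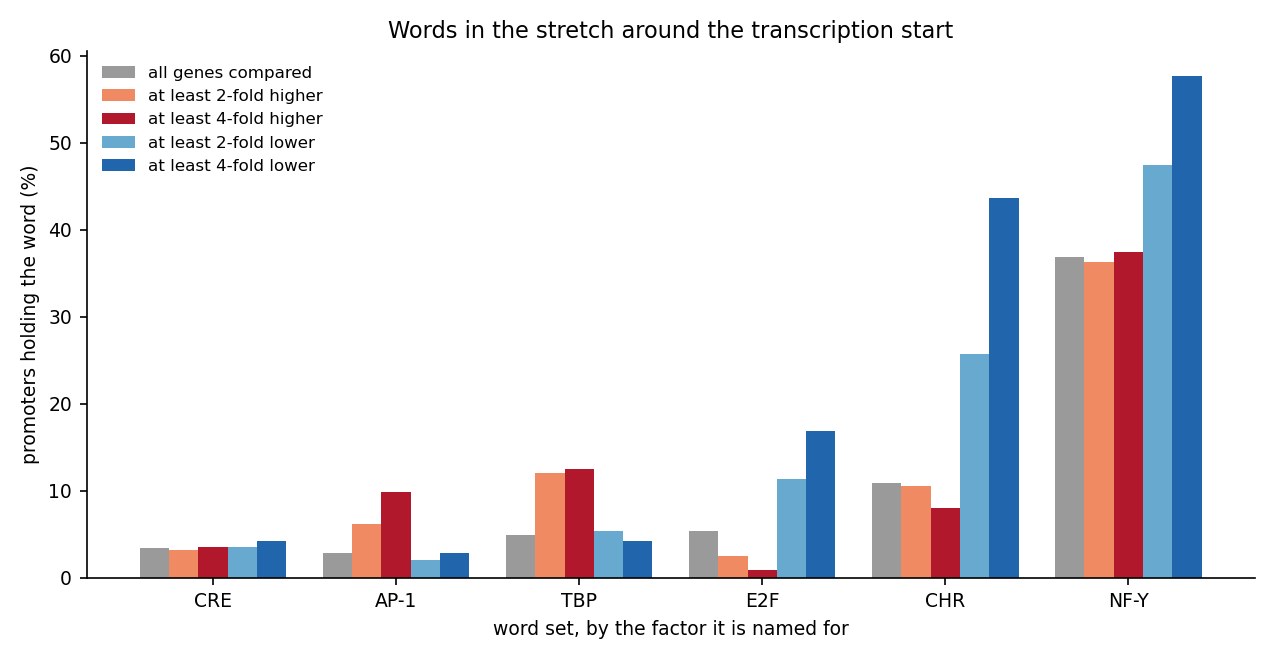
Bars give the percentage of promoters that hold each word set among all genes compared, genes at least 2-fold or 4-fold higher and genes at least 2-fold or 4-fold lower. The CRE bars lie between 3.21% and 4.23%, while the CHR bars reach 43.7% in genes at least 4-fold lower.

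Growth and survival genes outside the division lists differed gene by gene. Of 40 genes of amino acid supply and tRNA charging 4 were higher (10%) and 5 lower (12.5%), beside 4.13% and 5.42% of all genes. PSAT1 of serine synthesis had 4449 in control and 1058 with FSK, ASNS, asparagine synthetase, 1596 in control and 543 with FSK, and CHAC1 and PCK2, which like them respond to the factor ATF4, were at 0.347 of control (0.287 to 0.418) and 0.354 of control (0.31 to 0.404). The cystine carrier SLC7A11, another ATF4 target, was higher at 3.2-fold (3.12 to 3.29). SLC7A8, a neutral amino acid carrier, had 167 against 1019.6, and MTHFD1L, a mitochondrial folate enzyme, 4989 against 14073. All 12 tRNA synthetases had ratios below 1, none by 2-fold, with a median log2 ratio of -0.45.

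BCL2L11, the death promoter BIM, was higher with 1654 in control, 1931 with FSH, 1717 with SC79, 2193 with PMA and 5545 with FSK. BCL2, which opposes it, was lower with 178 in control and 26.1 with FSK, and MCL1 had a log2 ratio of 0.18. PMAIP1, NOXA, had 1417 in control and 448 with FSK, and GADD45A and GADD45B were lower at 0.329 of control (0.312 to 0.346) and 0.382 of control (0.337 to 0.433). Of 20 p53 targets 0 were higher and 2 lower (10%), beside 4.13% and 5.42% of all genes. FOXO1, the insulin-restrained factor of granulosa cells, had 659 in control, 821 with FSH, 679 with SC79, 907 with PMA and 2605 with FSK. FOXO3, whose sequence is in part shared with a pseudogene, had 6704 against 5794. Of 13 measured PI3K and AKT genes none passed 2-fold.

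The 10 largest rises and 10 largest falls in scaled counts depend on a gene's level and length as well as on its ratio. After IGFBP5 the rises were HTRA1, a secreted serine protease, with 159996 against 262435, ANTXR1, a collagen-binding receptor, with 33745 against 135037, EDIL3, an integrin ligand, with 103013 against 182194, and GALNT1, which starts mucin-type glycosylation, with 34911 against 112572. CD55, which protects cells from complement, had 9006 in control, 10775 with FSH, 9697 with SC79, 7873 with PMA and 81020.3 with FSK, at 8.997-fold (8.81 to 9.19). CPE, carboxypeptidase E, had 49382 against 117037, and IGFBP7, ITGB1 and SERPINE2 completed the 10. Of these, IGFBP5, ANTXR1, GALNT1, CD55, CPE and SERPINE2 were at least 2-fold higher. The falls after FN1 and COL1A1 were THBS1, thrombospondin 1, with 293372 against 149698, FLNA, MYH9, ACTB with 332081 against 220599.6, VIM, vimentin, with 523206 against 411890.3, EEF1A1, TUBB with 87979.6 against 32706 and ACTG1. Of these, MYH9 and TUBB were lower by 2-fold, and TUBB and EEF1A1 share sequence with other gene names.

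Transcripts of 5 genes were looked at one by one. These are model estimates for transcripts that share exons, so no interval is given. The 4 CYP19A1 transcripts above the minimum rose alike, with log2 ratios of 4.76 to 5.03. ENST00000396402.5 held 42.1% of the gene's counts in control and 40.7% with FSK, and ENST00000559878.5, which starts nearer the coding part, 36.3% and 39.1%. In CREM, which has 48 transcripts, those above the minimum had low estimates that also varied between libraries without FSK. ENST00000460270.5 and ENST00000374726.7, which begin at 35127117 and 35126923 of chromosome 10, had log2 ratios of 0.35 and 0.62. ENST00000356917.9 and ENST00000473940.5 begin further into the gene, at 35195147 and 35195127. They rose from 32.1 to 124 and from 35.1 to 121 scaled counts, with log2 ratios of 1.91 and 1.76. With FSH, SC79 and PMA, ENST00000356917.9 had 64.3, 71.9 and 39.5, and ENST00000473940.5 had 34.4, 4.52 and 31.1. ENST00000460270.5 had 151 in control and 48.5, 175 and 119 in those libraries. A dependence on the start therefore rests on unsteady estimates. The short CREM products called ICER are known to start inside the gene, but whether these transcripts are ICER was not tested.

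In PDE4D the transcript ENST00000546160.5 rose from 226 to 2724, and ENST00000636120.1 from 211 to 1223. The share of the first was 45.5% in control, 44.8% with FSH, 64.1% with SC79, 55.4% with PMA and 55.8% with FSK. That of the second was 42.6%, 34.8%, 16.6%, 21.3% and 25.1% in the same order. Such share shifts were thus not particular to FSK. ENST00000358923.10 was at 0 in control and 344 with FSK. PDE3A had 1 transcript above the minimum, with 17.6 and 1374. For KITLG, the kit ligand, the gene was lower and 2 transcripts were above the minimum. ENST00000378535.4, annotated as a processed transcript without a coding sequence, had 1682 and 509.7, and ENST00000228280.9, which is protein-coding, had 279 and 79.9. Their shares of the gene stayed at 84.2% and 84.7% for the first and 14.0% and 13.3% for the second.

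Over 4219 genes with at least 1000 scaled counts in both libraries and 2 or more transcripts of at least 10%, the largest shift of any transcript's share had a median of 4.31 points, and 63 genes had a shift of 20 points or more. The 8 largest were in NOMO3, MSH6, LONP1, INTS8, ABLIM1, ZNF219, KANK1 and PLEKHA8. In MSH6, a mismatch repair gene, ENST00000445503.5, annotated for nonsense-mediated decay, held 9.67% of counts in control and 56.7% with FSK, while the gene total was 5414 and 3519. In LONP1, a mitochondrial protease, ENST00000585374.5 held 0.816% and 47.8% at totals of 7709 and 7406. In ABLIM1, an actin-binding protein, ENST00000392955.7 held 53.3% and 17.3%. NOMO3 has near-identical copies, with 31.7% of its sequence words its own, so its shift of -55.4 points may lie in how reads were assigned, which was not tested. The other 4 had shifts between -37.0 and 34.6 points.

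The authors' deposited table also gives adjusted p-values for FSK against control. With 1 library per group these hold no spread between replicates, so no count of transcripts is taken from them. The smallest log2 fold change among transcripts with an adjusted p-value under 0.05 there was 3.88 in size, so that table calls only differences far larger than 2-fold. Its log2 fold changes and the log2 ratios of scaled counts differed by a median of -0.00174 over 12255 transcripts with over 500 scaled counts in both libraries.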

How the data were processed

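Polyadenylated RNA of 5 pools of KGN cultures was sequenced in paired-end mode. Per the labels' protocols the libraries came from a NEBNext Ultra kit with no word on strand, so a gene and an antisense or overlapping neighbour cannot be told apart. Per the submitters' processing notes the tools were Trimmomatic, kallisto and edgeR, with no version. The build and index were not given in the sources used here. The authors deposited estimated counts for 179973 transcripts, per the file headers. They also deposited a normalized signal, equal to the estimated counts multiplied by 1 constant for each library (1.02 for control and 1.03 for FSK), and a table with a log2 fold change for each transcript and its p-value before and after adjustment.

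For each of 35453 gene names the transcripts' estimated counts were added up. The sums were rounded to whole numbers for the scaling factors and the intervals, but not for the ratios and calls. The 303 transcripts without a name held at most 0.068% of a library and were left out. Libraries were scaled with edgeR 4.0.16 (TMM over 5 libraries, factor 0.989 for control and 0.976 for FSK) in R 4.3.3. Before taking log2 ratios 1 scaled count was added as pseudocount. To be called, a gene had to differ by 2-fold or more and reach 100 scaled counts in either library. Intervals of 95% are exact conditional binomial (Clopper-Pearson). With 1 library per group no test across genes was possible. Scaling with DESeq2 1.42.0 was one of the alternatives. The comparison was run on simulated Poisson counts with known folds, with the library sizes taken as known. That run checked the calculation only, not the TMM scaling, the assignment of reads or the spread between cultures. GENCODE release 29 on GRCh38 gave coordinates, and 91.0% of transcript identifiers were found in it. A gene with under 80% of its 31-base words absent from other gene names is said to share sequence.

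The genes compared and the 28 lists were chosen with earlier results of these data known, so no list is independent evidence. The rule for named genes took the key members of each list, its 4 largest and 4 smallest ratios, the 10 largest rises and falls in scaled counts, the transcripts of 5 genes and the 8 largest shifts of transcript share. Of the genes this rule gave, those that carry a list's result are described. Some further list members past 2-fold, such as PDE1A, GNAI1, IGF1, KLF9 and TGFBR1, and the promoters shown were chosen after their values were seen. Promoter stretches are from the RefSeq table on GRCh38.p14, and 71.5% of those used start within 100 bases of the most abundant transcript's annotated start. Stretches shown were limited to these, and genes on chromosome 8 were left out of that choice. The lists hold 1145 different genes, of which 940 were compared, 100 were higher and 240 lower. Calculations used Python 3.11.15, numpy 2.4.6, pandas 2.3.3, scipy 1.17.1 and matplotlib 3.10.9.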

Additional observations from a re-analysis of the deposited data

How the results depend on the processing

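No replicate could be left out, since each group has 1 library, and the same holds for a test of any difference. No paired analysis was possible because each group has 1 pooled library and no result comes from a test. The count of higher genes (521) stayed between 352 and 770, and that of lower genes (683) between 494 and 911, under DESeq2 size factors, total counts, upper quartile scaling, scaling over the 2 libraries alone, a minimum of 20 or 500, a pseudocount of 10, protein-coding transcripts alone, the deposited signal, intervals wholly past 2-fold (413 and 515) and names with at least 80% own words (467 and 611, a setting chosen after seeing the data). The calls moved by more than 1.5 times where the rule itself was widened or narrowed. A threshold of 1.5-fold gave 1154 higher and 1355 lower genes, one of 4-fold gave 154 and 182, and no minimum gave 2735 and 2018. Of the 521 higher genes 512 remained with DESeq2 size factors, 500 with total counts and 413 on the deposited signal. All 683 lower genes remained under these 3, which called 695, 701 and 911 in all. Apart from the pseudocount, each of the 3 moves every ratio down by 1 common factor. A lower gene could thus not come back inside 2-fold, and its staying is no separate check. Of the 28 lists, 9 had more lower than higher members, and 9 to 11 did under the 4 alternatives tried. The side with more calls was the same for 27 lists with DESeq2 size factors, 26 with total counts, 22 with a minimum of 20 and 28 with protein-coding transcripts. Of 171 named genes with a call, 171, 170 and 166 kept it with DESeq2 size factors, total counts and protein-coding transcripts, and none changed direction. The deposited signal moves the median log2 ratio of the genes compared from 0.00925 to -0.162, so ratios just above 0 change sign on it. Genes with a transcript shift of 20 points or more numbered 63, and 70 when shares were taken per kilobase. The CHR share of 25.7% among lower genes was 43.7% among those at least 4-fold lower. Depth limits the genes with few control counts most, such as HTRA3 and IL18R1, and the pooling of 3 cultures hides their spread.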

Other observations

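Further gene groups were put together after their values were seen, so their counts are descriptions of what was chosen. Antigen presentation by MHC class II had 10 of 16 measured genes higher and 1 lower. CIITA, the coactivator that switches this set on, had 581 in control, 744 with FSH, 551 with SC79, 558 with PMA and 2376 with FSK. HLA-DRA, the alpha chain of HLA-DR, had 1852 in control, 2521 with FSH, 1729.8 with SC79, 785 with PMA and 10066 with FSK, and CD74, the chain that guides class II molecules through the cell, had 12764 in control, 16179.5 with FSH, 12714 with SC79, 9169 with PMA and 37201 with FSK. HLA-DMA and HLA-DMB, which load peptides, were at 6.02-fold (5.34 to 6.8) and 9.07-fold (7.75 to 10.6). The HLA genes are alike in sequence, and HLA-DRB1 shares over 20% of its words with other names. RFXAP, a subunit of the factor that binds class II promoters, was lower at 0.488 of control (0.387 to 0.612). MHC class I genes stayed within 2-fold, 0 of 15 being higher or lower, with B2M at 109775 against 140759 and HLA-E at 14274 against 22816. PTPRC, CD14 and CD68, markers of immune cells, are part of a marker list whose sum was 840.1 in control and 922.1 with FSK, and CD3E and MS4A1 were at 0.

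NPY, which codes for neuropeptide Y, and the receptor genes NPY1R and NPY5R were higher. NPY had 237 in control, 221 with FSH, 149 with SC79, 57.3 with PMA and 3134 with FSK, NPY1R 3611 in control, 4641 with FSH, 3564 with SC79, 4496 with PMA and 40460.1 with FSK and NPY5R 163 in control, 165 with FSH, 168 with SC79, 201 with PMA and 1363 with FSK. DPP4, which trims the peptide, had 1205 against 1149 (log2 -0.07). Genes of dense-core granules, where peptide hormones are stored, included 5 of 9 measured members that were higher and 0 lower. PTPRN, a granule membrane protein, had 33.9 in control, 92.8 with FSH, 50.8 with SC79, 258 with PMA and 1154 with FSK, and CHGB, chromogranin B, had 92.6 against 685. PAM, which amidates peptides, had 9722 against 37170.4. SNAP25 was at 0 in both libraries and CHGA had 0.917 against 1.04, so the set was not complete.

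Of 13 measured tubulins 9 were lower and 0 higher, from 0.271 of control (0.267 to 0.276) for TUBA1B to 0.44 of control (0.425 to 0.456) for TUBB3, while TUBG2 had 754 against 724 and TUBB4A 368 against 378. Many tubulins share sequence, so their separate values are uncertain. Nuclear lamina genes had 5 of 14 lower. LMNB1, lamin B1, had 4997 in control, 4085 with FSH, 4067 with SC79, 2046 with PMA and 856 with FSK, LMNB2 14446 against 3702 and LMNA, lamin A, 79482 in control, 71912 with FSH, 73193 with SC79, 47723 with PMA and 32230.2 with FSK, whereas LEMD3 and SUN1 of the same envelope had log2 ratios of 0.15 and 0.11. Collagen-modifying enzymes had 2 of 15 higher. PLOD2, the lysyl hydroxylase of collagen telopeptides, had 10081 in control, 14839.9 with FSH, 9929 with SC79, 24665 with PMA and 59056 with FSK, while PLOD1 and PLOD3 had 0.56 and 0.44 on the log2 scale.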
